A study of Homo sapiens with 4 samples.

Results

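The ABC transporters of TOV112D cells, an established line of epithelial ovarian cancer, were measured with and without the HOXD10 plasmid. The members were all probes whose gene symbol is ABC, a letter from A to G and a number, with 5 probes of 3 pseudogenes left out. They came to 58 probes of 42 genes, among 28264 probes and 19090 named genes on the array. HD cells were transfected transiently with a HOXD10-pCDNA plasmid. The ND cells were controls, described as mock-transfected in the methods and as carrying control plasmid in the legends. Both groups were of the same parental line, and by the methods not every cell took up a plasmid. Each group had 2 single-colour whole-genome arrays (ND1 and ND2, HD1 and HD2), to which Cy5-labelled RNA was hybridised. The values are normalized intensities on a linear scale, and values lower than 50 had been raised to 50.

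ABC transporters are membrane proteins that bind and hydrolyse ATP in paired nucleotide-binding domains and use it to move lipids, peptides, metal complexes, conjugates and drugs across membranes. The subfamilies divide the work broadly: ABCA proteins and several ABCG proteins move lipids, the B and C subfamilies hold drug, peptide, bile salt and anion exporters together with mitochondrial carriers and channel regulators, and most ABCD proteins import fatty acids into peroxisomes. ABCE1 and the ABCF proteins keep the ATP-binding domains, lack a membrane domain and act on ribosomes. In ovarian cancer the family is known mainly for drug efflux, through ABCB1, ABCC1 and ABCG2.

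The start-site regions of 3 members that were higher in HD are shown because they stand for different roles in the family, a lipid exporter, an anion exporter and a ribosome recycling factor. Sequences are those of RefSeq (GRCh38.p14), running from 250 bases before to 50 bases after the annotated start. The capitals mark TTTAT or TTTAC on either strand, a core that posterior HOX proteins are known to bind. The region of ABCA1 is chr9:104928106-104928405 on the minus strand, that of ABCC4 is chr13:95301402-95301701 on the minus strand, and that of ABCE1 is chr4:145098061-145098360 on the plus strand.
ABCA1: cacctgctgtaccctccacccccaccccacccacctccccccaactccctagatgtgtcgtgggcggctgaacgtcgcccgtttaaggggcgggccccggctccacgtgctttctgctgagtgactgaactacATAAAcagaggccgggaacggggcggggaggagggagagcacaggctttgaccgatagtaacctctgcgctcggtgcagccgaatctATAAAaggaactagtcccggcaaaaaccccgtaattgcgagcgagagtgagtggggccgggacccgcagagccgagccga
ABCC4: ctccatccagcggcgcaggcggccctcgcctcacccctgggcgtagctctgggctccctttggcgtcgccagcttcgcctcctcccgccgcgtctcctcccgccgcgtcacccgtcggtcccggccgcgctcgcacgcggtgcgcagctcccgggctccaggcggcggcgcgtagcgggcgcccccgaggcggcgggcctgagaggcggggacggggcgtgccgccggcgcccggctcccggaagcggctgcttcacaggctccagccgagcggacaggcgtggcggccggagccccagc
ABCE1: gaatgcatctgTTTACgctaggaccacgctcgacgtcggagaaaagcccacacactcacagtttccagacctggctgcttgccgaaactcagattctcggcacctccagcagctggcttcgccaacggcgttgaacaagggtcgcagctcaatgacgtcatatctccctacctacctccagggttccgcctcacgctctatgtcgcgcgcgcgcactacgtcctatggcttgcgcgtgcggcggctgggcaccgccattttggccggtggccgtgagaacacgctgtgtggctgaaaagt

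The ABCA1 region held TTTAT, in part where it overlaps TATAAA, the ABCE1 region held TTTAC, and the ABCC4 region held neither. Such short words are common. TTTAT was present in 34.9% and TTTAC in 28.1% of all 35116 start-site regions of the same length, and in 15 and 13 of the 51 regions matched to 34 of the 42 member genes. The cyclic AMP response word TGACGTCA was present in 1.85% of all regions and in 1 of the 51, that of ABCE1. The ABCC4 region was 79.7% G and C, and the ABCA1 and ABCE1 regions were 62.7% and 59.7%, beside a median of 58.7% over all regions. These matches describe letters only, since no binding was measured.

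The family was measured unevenly. On all 4 arrays 11 of the 58 probes stayed at 50, and 6 genes had no other probe: ABCA5, ABCA9, ABCA12, ABCA13, ABCG1 and ABCG8. The other 47 probes were above 50 on at least 1 array. Array medians were equal at 361, between 4414 and 5579 probes per array lay at 50, and the HOXD10 probe itself was at 50 on all 4 arrays. The sources used here do not say whether that probe can read the plasmid's transcript. By qPCR and western blot, the paper reports more HOXD10 mRNA and protein in TOV112D cells given the HOXD10 plasmid. The line was checked against its type. Of 11 epithelial and ovarian tumour markers KRT7 and CDH1 were at 50 on all arrays, EPCAM rose from 378 and 360 to 1767 and 1469, KRT8 rose from 50 on both ND arrays to 99.4 and 103, and KRT19 and CLDN4 fell. MUC1 read 351 and 495 in ND and 1059 and 907 in HD, with an adjusted p of 0.0837 in limma. KRT18, CLDN3, PAX8 and WT1 did not pass, and PAX8 and WT1 were at 50 on both HD arrays. Among 5 measured leukocyte markers LYZ was at 50 on all arrays, CD3E was at or near 50, and PTPRC rose from 81.1 and 99.1 to 277 and 250. The brighter CD14 and CD68 were lower in HD without passing. CD14 read 803 and 888 in ND and 543 and 759 in HD, and CD68 read 1625 and 2255 in ND and 1254 and 1214 in HD. None of 5 endothelial and none of 8 fibroblast markers passed at an adjusted p under 0.05. LUM, a fibroblast marker, read 13461 and 13744 in ND and 33247 and 26472 in HD, higher by a log2 difference of 1.13 (SE 0.15) with an adjusted p of 0.0522 in limma. The summed fibroblast markers ranged from 60090 to 68413 in ND and from 63496 to 76011 in HD, the summed epithelial markers from 2462 to 2658 and from 3818 to 4416, the summed leukocyte markers from 2609 to 3346 and from 2175 to 2323, and the summed endothelial markers from 1160 to 1360 and from 1033 to 1038. The part of these shifts in the results for the transporters was not tested.

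At an adjusted p under 0.05 in limma, fitted over all probes with Benjamini-Hochberg adjustment, 8 of the 58 probes passed, 7 higher and 1 lower in HD. Over all probes 13.8% passed, 6.65% higher and 7.19% lower, and of the members 13.8% passed, 12.1% higher and 1.72% lower. The total share was that of the array, while rises were the larger portion of it among the members. The 7 rises belonged to ABCA1, ABCB9, ABCB10, ABCC4, ABCC5, ABCD3 and ABCE1, and the fall to the other ABCD3 probe. Their adjusted p-values lay between 0.0358 and 0.0430, close to the threshold. The study's own criteria ask for a log2 difference of 1 or more in either direction and an unadjusted p under 0.05. By these, 6 probes were higher and 0 lower (10.3% of members), where 6.11% of all probes were higher and 6.27% lower. ABCC5 and the falling ABCD3 probe were past the adjusted threshold with changes smaller than 2-fold.

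Of the 47 probes above 50 on at least 1 array, 40 (85.1%) were within 2-fold between the groups, as were 83.7% of all such probes on the array. The 2 ND and 2 HD values did not overlap for 25 of the 58 members (43.1%), 14 higher and 11 lower, where 59.7% of all probes did not overlap, 24.9% higher and 34.8% lower. Probes at 50 on all arrays cannot part, and without them the shares were 53.2% of members and 67.9% of all probes. At an unadjusted p under 0.05 limma gave 13 members, 11 higher and 2 lower, which is 22.4% beside 35.7% of all probes. The median log2 fold change, HD minus ND, was 0 over the 58 probes and -0.02 over all probes. The arrays of a group are not stated to come from separate cultures, and the p-values then reflect only how far these arrays lie apart, possibly for technical reasons. With any 1 array left out, or with the replicate number as a block, 0 members and 0 probes of any gene passed the adjusted threshold. With robust eBayes, 0 members passed while 564 probes of the array did.

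**Figure D1:**
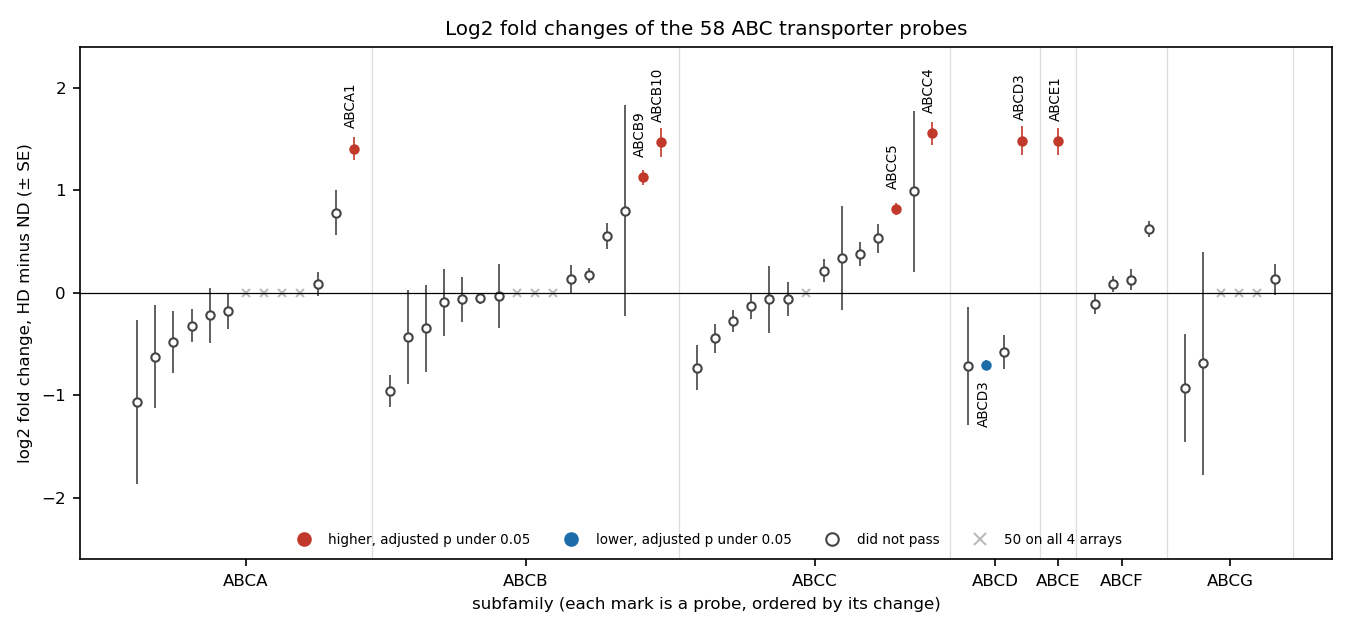
Log2 fold change (HD minus ND) with its standard error for each of the 58 probes, ordered by size within subfamilies A to G on the horizontal axis. The 7 filled red points lie between 0.82 and 1.56, the filled blue point of ABCD3 lies at -0.71, and the 11 crosses are probes at 50 on all 4 arrays.

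Among the lipid exporters 1 gene rose. ABCA1 hands cholesterol and phospholipid to apolipoprotein A-I, the step that starts HDL formation. Its probe read 531 and 630 in ND and 1510 and 1558 in HD. Both HD values were over both ND values, and the difference of 1.41 on the log2 scale (SE 0.11) passed with an adjusted p of 0.0391 in limma. That is a 2.65-fold higher intensity, from 580 ± 69.7 to 1534 ± 33.5 (mean ± SD, n = 2). It was the largest change in size of the 13 probes of the A subfamily.

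The other A members did not pass. ABCA3, which loads phospholipid into the lamellar bodies of lung cells, read 3641 and 3808 in ND and 4306 and 3609 in HD, and the groups overlapped. ABCA6 read 198 and 56.4 in ND and 50 and 50.9 in HD, so its log2 difference of -1.07 (SE 0.80) came from 1 ND array. ABCA10, which lies in a cluster with ABCA5, ABCA6, ABCA8 and ABCA9 on chromosome 17, had probes of opposite sign, 0.78 (SE 0.22, adjusted p = 0.136 in limma) and -0.32 (SE 0.16), the former passing once dim probes were left out. ABCA2, ABCA4, ABCA7 and ABCA8 had log2 differences from -0.62 to -0.18.

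In the G subfamily none of 6 probes passed. ABCG1, which moves cholesterol to HDL particles, and ABCG8, the partner of ABCG5 in sterol export, were at 50 on all arrays, and ABCG5 ranged from 50 to 63.4. ABCG4, a sterol exporter of brain, read 1192 and 522 in ND and 405 and 424 in HD. Its groups did not overlap, and its log2 difference of -0.93 (SE 0.53) was the largest of the subfamily, with the ND arrays more than 2-fold apart. The phosphatidylcholine transporter ABCB4 was at or near 50 with both probes.

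In the B subfamily the rises were those of an endomembrane and a mitochondrial transporter, each seen with 1 probe only. ABCB10 sits in the mitochondrial inner membrane and is needed for normal heme synthesis. Its rising probe read 263 and 292 in ND and 848 and 694 in HD, a log2 difference of 1.47 (SE 0.15, adjusted p = 0.0430 in limma). Its other probe read 439 and 579 in ND and 535 and 436 in HD, overlapping, with a difference of -0.06 (SE 0.22). ABCB9, which moves peptides into lysosomes, had 3 probes. The probe that rose read 280 and 258 in ND and 566 and 610 in HD (1.13, SE 0.07, adjusted p = 0.0358 in limma). Another read 598 and 692 in ND and 364 and 301 in HD, a difference of -0.96 (SE 0.15) with an adjusted p of 0.0647 in limma. It passed as lower after cyclic loess (adjusted p = 0.0103), 75th percentile scaling (0.00603) or the filter on dim probes (0.00972). The remaining ABCB9 probe read 298 and 129 in ND and 173 and 680 in HD, and its groups overlapped. The gene as a whole therefore has no single direction in these data.

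The other mitochondrial members had positive differences that did not pass. ABCB6, a porphyrin transporter of mitochondria and endolysosomes, read 135 and 164 in ND and 221 and 215 in HD (0.55, SE 0.13, adjusted p = 0.105 in limma), and passed after cyclic loess (0.0317) or 75th percentile scaling (0.0301). ABCB8, which acts in mitochondrial iron export, read 277 and 310 in ND and 327 and 333 in HD (0.17, SE 0.07), and its other probe was at 50. Neither gene's groups overlapped in the probes above 50. Of the remaining B genes, ABCB11, the bile salt export pump, read from 108 to 164 and ABCB5 from 50 to 146 over its 4 probes, with overlapping groups.

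**Figure D2:**
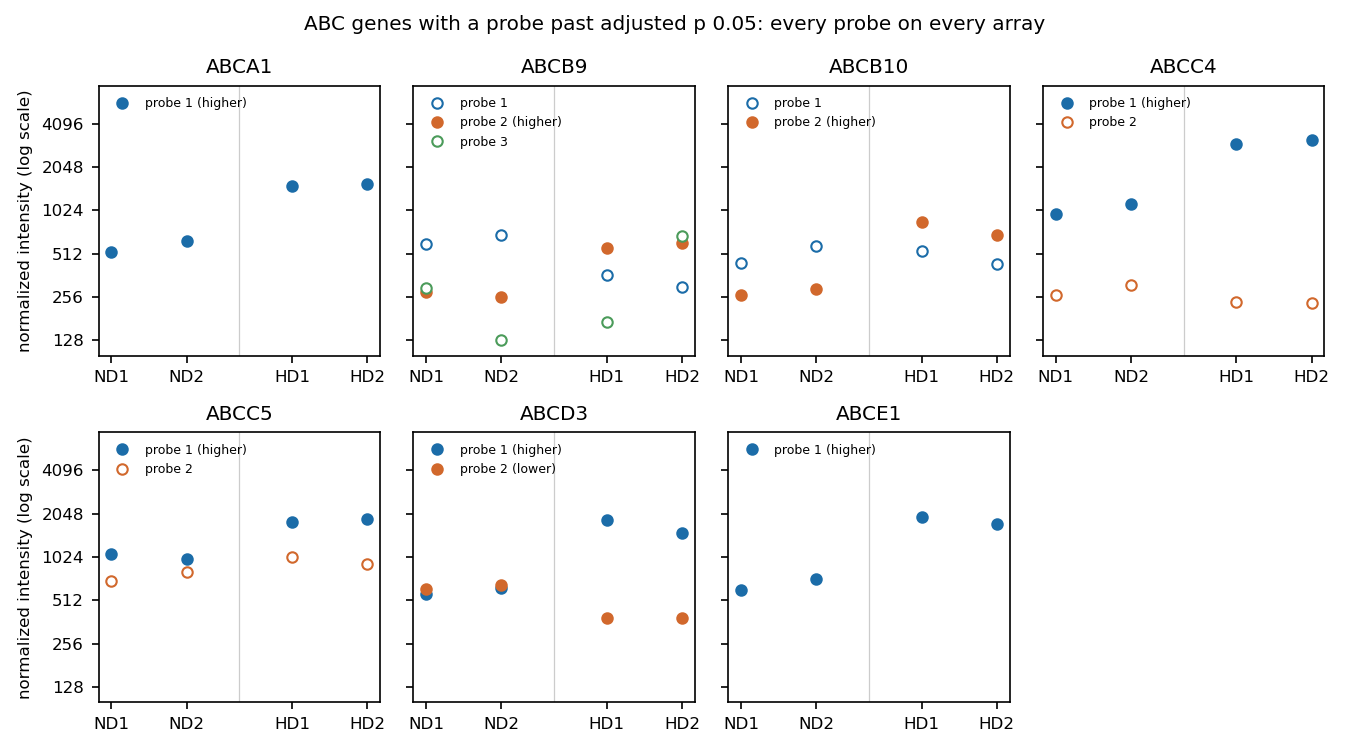
Normalized intensity (log scale) on each of the 4 arrays for every probe of the 7 genes with a probe past an adjusted p of 0.05, a panel per gene, with filled points for probes that passed. The filled probes of ABCA1, ABCC4 and ABCE1 lie higher on both HD arrays, and the 2 probes of ABCD3 move in opposite directions, to 1841 and 1505 for the probe that rose and to 388 and 388 for the probe that fell.

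Of the 9 drug and anion efflux genes with 13 probes, 2 probes rose, those of ABCC4 and ABCC5, 0 fell, and the median over the genes was -0.06 on the log2 scale. ABCC4 (MRP4) exports cyclic nucleotides, prostaglandins and nucleotide analogue drugs. Its rising probe read 964 and 1133 in ND and 2979 and 3179 in HD. This was the largest change of the family, 1.56 on the log2 scale (SE 0.11, adjusted p = 0.0370 in limma) or 2.95-fold, from 1048 ± 119 to 3079 ± 141 (mean ± SD, n = 2). The other ABCC4 probe read 263 and 311 in ND and 238 and 234 in HD, without overlap but short of the threshold (-0.28, SE 0.11, adjusted p = 0.223). ABCC5 (MRP5), a close relative that also exports cyclic nucleotides, read 1080 and 998 in ND and 1782 and 1876 in HD with the probe that rose (0.82, SE 0.06, adjusted p = 0.0377 in limma). Its other probe read 693 and 800 in ND and 1025 and 913 in HD, also higher without overlap (0.38, SE 0.12, adjusted p = 0.163).

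The pumps best known from drug resistance did not pass as deposited. ABCC1 passed as higher only under cyclic loess and 75th percentile scaling, with much the same difference. ABCB1, P-glycoprotein, read 50 and 53.9 in ND and 50 on both HD arrays, so no level over the lowest value could be compared. ABCC1 (MRP1), which exports glutathione conjugates, read 811 and 971 in ND and 1363 and 1206 in HD. Its groups did not overlap, and its log2 difference of 0.53 (SE 0.14) had an adjusted p of 0.126 in limma. After cyclic loess and 75th percentile scaling the adjusted p was 0.0271 and 0.0304, with differences of 0.51 and 0.52. ABCG2, the breast cancer resistance protein, read 1461 and 579 in ND and 280 and 1164 in HD with 1 probe, and 50 on all arrays with the other. Each group held a high and a low ABCG2 value, so the log2 difference of -0.69 (SE 1.09) was smaller than its error.

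ABCC3 (MRP3), which exports glucuronides and bile salts, had lower HD values with both probes and without overlap, but did not pass as deposited. The probes read 3363 and 4139 against 2659 and 2826 (-0.44, SE 0.14, adjusted p = 0.162 in limma) and 1424 and 1821 against 1091 and 860 (-0.73, SE 0.22, adjusted p = 0.152). The latter probe passed as lower after cyclic loess (0.0253), 75th percentile scaling (0.0221) or the filter on dim probes (0.0361). ABCC2 (MRP2), ABCC10 (MRP7) and ABCC11 (MRP8) had differences of -0.13 (SE 0.12), -0.06 (SE 0.16) and -0.06 (SE 0.33), and the groups overlapped for each. The sulfonylurea receptors, subunits of potassium channels, did not pass either: ABCC8 read 622 and 712 in ND and 813 and 733 in HD, and ABCC9 read 254 and 128 in ND and 215 and 597 in HD with the probe that was above 50.

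**Figure D3:**
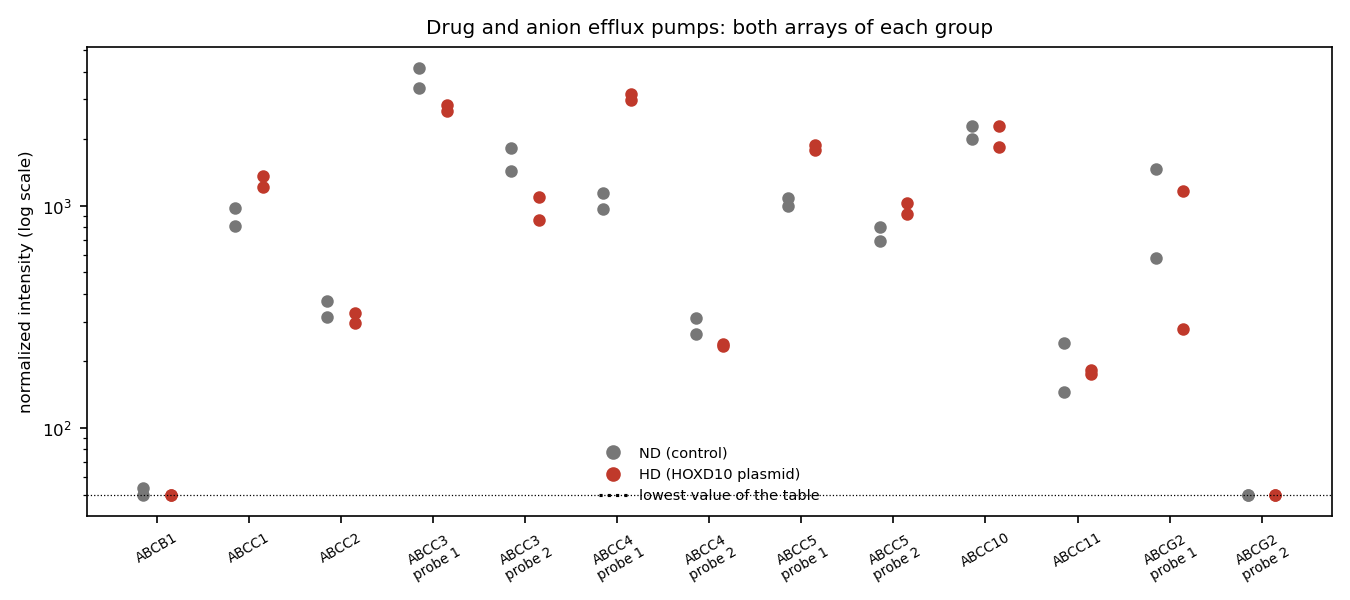
Normalized intensity (log scale) of the 13 probes of the 9 drug and anion efflux genes, with grey points for the 2 ND arrays and red points for the 2 HD arrays, and a dotted line at 50, the lowest value of the table. ABCC4 and ABCC5 each have a probe whose HD points lie clear of the ND points, while the HD points of ABCG2, 280 and 1164, lie on either side of its lower ND point, 579.

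The peroxisomal transporter ABCD3 passed in both directions. ABCD3 (PMP70) carries branched-chain fatty acids and bile acid intermediates into peroxisomes. The probe that rose read 569 and 622 in ND and 1841 and 1505 in HD, a log2 difference of 1.48 (SE 0.14, adjusted p = 0.0427 in limma). The probe that fell read 612 and 655 in ND and 388 and 388 in HD, a difference of -0.71 (SE 0.05, adjusted p = 0.0358). Neither pair of groups overlapped, and no direction can be given for the gene. ABCD2, which carries very long-chain fatty acids, read 152 and 129 in ND and 85.0 and 104 in HD (-0.58, SE 0.17, adjusted p = 0.143), and ABCD4, a lysosomal cobalamin transporter, read 245 and 104 in ND and 85.0 and 112 in HD, overlapping.

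Of the 4 genes without a membrane domain, 1 rose. ABCE1 splits ribosomes into their subunits after termination so that they can be used again. It read 603 and 715 in ND and 1928 and 1732 in HD, a 2.78-fold rise from 659 ± 79.4 to 1830 ± 139 (mean ± SD, n = 2), or 1.48 on the log2 scale (SE 0.13, adjusted p = 0.0411 in limma). ABCF2 came next, with 928 and 1023 in ND and 1551 and 1447 in HD (0.62, SE 0.08). Its adjusted p of 0.0507 in limma missed the threshold and fell under it in 6 alternatives, between 0.0118 after cyclic loess and 0.04998 with a pseudocount of 50, while its other probe gave 0.13 (SE 0.11). ABCF1, which assists translation initiation, read from 23565 to 27157 with overlapping groups (0.09, SE 0.08), and ABCF3 from 4081 to 4873, also overlapping (-0.10, SE 0.10). Quantile and cyclic loess normalization moved the ABCF1 difference to 0.61 and 0.65, and that of ABCF3 to 0.029 and 0.081, so both values depended on the scaling. ABCF1 passed as higher after cyclic loess (adjusted p = 0.0210).

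Probes of a single gene disagreed often. Of 13 member genes with several probes, 5 (38.5%) had log2 fold changes at least 1 apart, namely ABCA10, ABCB9, ABCB10, ABCC4 and ABCD3, beside 19.0% of the 5751 such genes on the array. The median distance was 0.69 for the members and 0.48 for all. Of the 7 genes with a rise, ABCA1 and ABCE1 had a single probe, ABCC5 had its other probe on the same side, and ABCB9, ABCB10, ABCC4 and ABCD3 had another probe with a negative difference. Among genes with several probes and at least 1 called, calls in both directions occurred for 1 of 5 members (ABCD3) and for 19 of 1577 genes in all, 1.20%. The sources used here do not place the probes along their transcripts, and the part of transcript isoforms or of cross-hybridisation was not tested.

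ABC proteins whose symbols do not begin with ABC were read separately. The peptide transporter TAP1 read 6796 and 7745 in ND and 9487 and 8830 in HD (0.34, SE 0.10, adjusted p = 0.143 in limma), its partner TAP2 had a difference of 0.16 (SE 0.18) and the chloride channel CFTR one of -0.05 (SE 0.16). None of the 3 passed.

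The partner pathways of the members were then counted, with each gene represented by its probe of highest mean log2 intensity. Over all 19090 genes read this way 6.67% were higher and 7.97% lower at an adjusted p under 0.05, with a median log2 difference of -0.05. Around ABCE1 and the ABCF proteins, 20 genes of translation termination, ribosome recycling and initiation had 5 higher, 1 lower and a median of 0.57. HBS1L, a ribosome rescue GTPase, rose from 61.3 and 69.0 to 173 and 153, and EIF3J, which works with ABCE1 in recycling, rose from 385 and 472 to 1184 and 1218. EIF2S1, a subunit of initiation factor eIF2, rose from 6211 and 6736 to 12695 and 11587. PELO, the partner of HBS1L, fell from 2893 and 2975 to 2317 and 2279, a call lost under all 3 other scalings (adjusted p from 0.0553 to 0.117).

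Around ABCD3 the count went the other way. Of 16 measured genes of peroxisome biogenesis and beta-oxidation 0 were higher, 4 were lower, and the median was -0.53. PEX19, the carrier of peroxisomal membrane proteins, fell from 1760 and 1760 to 1076 and 1103, PEX5, the import receptor, fell from 8071 and 7968 to 5205 and 4841 (lost after quantile and cyclic loess normalization, adjusted p = 0.0505 and 0.0529), and PEX14, its docking partner, fell from 2057 and 2263 to 1109 and 1172. ACOT8, a peroxisomal thioesterase, was the fourth. Around ABCB6, ABCB8 and ABCB10, 22 measured genes of heme synthesis and iron-sulfur assembly had 0 higher, 5 lower and a median of -0.50. LYRM4, a subunit of the cysteine desulfurase complex, fell from 7007 and 7204 to 2703 and 2410, FDX1, a mitochondrial ferredoxin, fell from 3101 and 3171 to 1405 and 1227, and UROS, a heme synthesis enzyme, fell from 18108 and 19617 to 9233 and 8387.

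Around ABCA1, 11 measured sterol genes had 1 higher, 2 lower and a median of -0.18. MYLIP, which marks the LDL receptor for degradation, rose from 569 and 581 to 1479 and 1221. NPC2, which hands cholesterol out of lysosomes, fell from 114439 and 120426 to 43694 and 35843, and the apolipoprotein gene APOC1 fell from 27423 and 29762 to 12557 and 12509. NR1H3, the liver X receptor alpha, read 3336 and 3490 in ND and 1736 and 1393 in HD, lower by the study's criteria only (-1.13, SE 0.14, adjusted p = 0.0513 in limma). Around the efflux pumps, 18 measured conjugating enzymes and inducing receptors had 1 higher, 3 lower and a median of -0.20. GCLM, the modifier subunit of the enzyme that starts glutathione synthesis, rose from 885 and 892 to 1973 and 1664, while the glutathione transferases GSTO1, GSTK1 and GSTT1 fell, GSTO1 from 72075 and 79553 to 33714 and 29033.

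Around TAP1 and TAP2, the ABC proteins read separately, 8 genes of MHC class I peptide loading had 1 higher, 1 lower and a median of -0.33. ERAP2, which trims peptides in the endoplasmic reticulum, rose from 64.1 and 50 to 412 and 335, and TAPBP, which tethers TAP to class I molecules, read 22367 and 23719 in ND and 17868 and 17407 in HD (-0.39, SE 0.04, adjusted p = 0.0466 in limma). The TAPBP call was lost under all 3 other scalings, and its difference turned to 0.058 after quantile and 0.13 after cyclic loess normalization. For comparison, 20 measured ATP-driven ion and lipid pumps outside the ABC family had 7 higher, 0 lower and a median of 0.63. ATP13A3, a polyamine pump, rose from 154 and 166 to 512 and 486, ATP2B4, a plasma membrane calcium pump, from 314 and 349 to 953 and 1039, and ATP10D, a phospholipid flippase, from 1288 and 1343 to 2600 and 2764. The lists depended on the scaling. None of the 7 medians changed sign after quantile or cyclic loess normalization. The 75th percentile scaling moves every difference by the same small amount and could not have turned a median. That of peptide loading shrank to -0.09 after quantile and -0.07 after cyclic loess. Those of the sterol genes and of the heme and iron-sulfur genes shrank to -0.06 and -0.32 after cyclic loess. That of the conjugating enzymes and receptors shrank to -0.12 after quantile normalization. Over these scalings 10 to 13 genes of translation termination, recycling and initiation were higher and 0 or 1 lower. Of the pumps 8 to 12 were higher and 0 or 1 lower. For the peroxisomal genes 1 or 2 were higher and 6 to 9 lower, and 7 to 11 heme and iron-sulfur genes were lower. Calls rose over the whole array as well, from 3912 of 28264 probes as deposited. They came to 6051 after quantile, 8902 after cyclic loess and 9472 after 75th percentile scaling, both directions together.

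The direction also moved with brightness over the whole array. At a mean log2 intensity from 10 to 11 the median log2 difference of 2847 probes was -0.04, and it was -0.59 for the 712 from 14 to 15, -0.78 for the 394 from 15 to 16 and -0.93 for the 213 from 16 to 17. Several of the named falls lie in that bright range: NPC2 at a mean of 16.1, GSTO1 at 15.6, TAPBP at 14.3, APOC1 at 14.2 and UROS at 13.7. After quantile normalization the differences of NPC2, GSTO1, APOC1 and UROS were -0.78, -0.57, -0.75 and -0.77, against -1.57, -1.28, -1.19 and -1.10 as deposited, and the 4 still passed. Of the members 1, ABCF1, lay at a mean of 13 or more. The part of brightness in these falls was not tested.

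**Figure D4:**
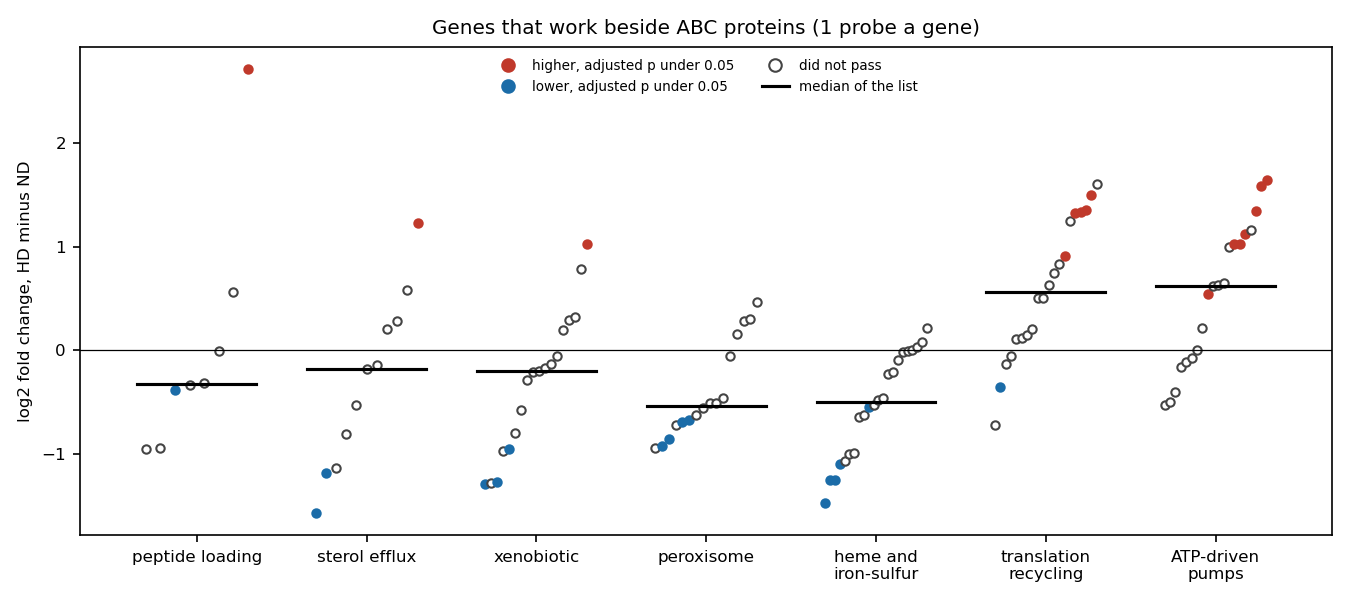
Log2 fold change (HD minus ND) of each measured gene in the 7 partner lists, a column of points per list with a bar at its median and filled points for genes past an adjusted p of 0.05. The medians of the genes of translation termination, ribosome recycling and initiation (0.57) and of the ATP-driven pumps (0.63) lie above 0. Those of the peroxisome (-0.53) and heme and iron-sulfur genes (-0.50) lie below it.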

How the data were processed

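Total RNA of 2 HD and 2 ND samples was measured on single-colour Cy5 arrays. According to the methods, the authors scanned the arrays, read the spots and centred the arrays at the 75th percentile. The deposited values are normalized intensities on a linear scale with a lowest value of 50, and the arrays share their median. Their 75th percentiles ran from 1783 (ND1) to 1931 (HD1), so the deposited values are not equal at the percentile named in the methods. The sources used here do not state a background correction. Columns were assigned by the labels.

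The log2 of the deposited intensities was fitted in R 4.3.3 with limma 3.58.1 (lmFit, eBayes) as HD minus ND, without a block, on the 28264 probes together (residual degrees of freedom 2, prior 0.543). Benjamini-Hochberg adjustment ran over the same probes. Adjusted p-values printed without a tool are from this fit. The fit was tested on simulated data. Symbols came from the array's annotation (25893 probes with 1 symbol, 2371 with none). Named genes were all called members, all members of the efflux, mitochondrial, peroxisomal and membrane-free lists, the largest change of each subfamily, and up to 3 called genes per direction in each partner list. ACOT8, NR1H3 and the remaining members were named after their values were seen. The members and lists were chosen with earlier results of these data known. Alternatives covered scaling, a pseudocount of 50, a filter on dim probes, the variance model, the replicate block and leaving out each array. The number of arrays limits the precision.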

Additional observations from a re-analysis of the deposited data

How the results depend on the processing

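At an adjusted p under 0.05, 8 members passed as reported and 9 after quantile normalization or with a pseudocount of 50. Without probes at 50 on all arrays 12 members passed, after 75th percentile scaling 13 and after cyclic loess 14. The calls over the array rose too, from 3912 of 28264 probes as reported to 4053 with the pseudocount and 6051 after quantile normalization. They reached 8902 after cyclic loess, 9472 after 75th percentile scaling and 8585 of 24855 with the filter. Yet the filter left each difference as it was, and 75th percentile scaling moved all of them by the same small amount. Calls gained under both therefore came mainly through the errors, their degrees of freedom and the adjustment. The size of each part was not tested. With an intensity trend 8 members passed, all higher, without the falling ABCD3 probe, beside 4528 of all probes. The gains were ABCF2 under 6 alternatives, and ABCA10, ABCB6, ABCB9, ABCC1, ABCC3 or ABCF1 under some of cyclic loess, 75th percentile scaling and the filter on dim probes. With robust eBayes 0 passed (11 at an unadjusted p under 0.05) though 564 probes of the array did, with the replicate block 0 (9), and with any 1 array left out 0 to 0 (10 to 17); under the block and without an array no probe of any gene passed. By the study's criteria the count was 6 as reported and 6 to 8 with an array left out, and ABCB9 was lost with the pseudocount. The 8 called probes kept their direction in every alternative, but most alternatives could not have changed it. The groups of these probes did not overlap, so leaving out an array or adding a pseudocount cannot turn the sign. The block, the variance model and the filter leave the difference itself as it was. Residual degrees of freedom are lost with the block or without an array, which bears on the counts above. The 75th percentile scaling moves every log2 difference by the same small amount (ABCA1 from 1.407 to 1.401), too little to turn these signs. Only quantile and cyclic loess normalization could have changed the direction. ABCF3 changed sign to 0.029 after quantile and 0.081 after cyclic loess normalization; the cause was not tested. With an array left out, some uncalled probes changed sign: the first ABCB10 probe ranged from -0.26 to 0.14, the third ABCB9 probe from -0.19 to 1.79, ABCC10 from -0.22 to 0.10, ABCC11 from -0.43 to 0.30 and ABCG2 from -1.72 to 0.34.

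Deviations of same-numbered arrays correlated at -0.32, and those of the crossed pairs at 0.32. With 2 arrays per group these values must be equal and opposite. They cannot show whether the replicate numbers pair the arrays. The crossed pairing, chosen after seeing the data, gave 0 members at an adjusted p under 0.05 and 17 at an unadjusted one. Probes at 50 have no order and no measured level.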

Other observations

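The arrays of a group were at least 2-fold apart for 5 member probes in ND and 6 in HD, of 58, and for 1051 and 464 of all 28264 probes. In 2 member probes, the third of ABCB9 (298 and 129 in ND, 173 and 680 in HD) and the one of ABCG2 above 50 (1461 and 579, 280 and 1164), ND1 and HD2 were the high arrays by at least 2-fold in both groups. Over all probes that combination occurred 101 times, against 1 time for ND2 and HD1, 2 times for ND1 and HD1 and 1 time for ND2 and HD2.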
